A study of Mus musculus with 4 samples.

Results

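The IFIT family (interferon-induced proteins with tetratricopeptide repeats) was examined in mouse leukemia cells that did or did not receive IRF4. Its members were taken by name from the table of counts: *Ifit1*, *Ifit1bl1*, *Ifit2*, *Ifit3* and *Ifit3b*, 5 of the 55359 gene identifiers listed. All 5 passed the filter on low counts, as did 14637 identifiers in all. The study used bulk RNA-seq of T8 cells, labelled as a cell line, which came from the primary tumor of 1 Irf4-/- mouse, a clonal pre-B leukemia. The study's methods name lines T8.1 and T8.2 from that tumor, and which of them was used is not given in the sources used here. T8 cells received a retrovirus (RV) coding for GFP alone (EV-RV, 2 libraries) or for GFP plus IRF4 (IRF4-RV, 2 libraries). Cells that were still viable were collected 24 h after transduction, and the sources used here do not state whether GFP-positive cells were sorted. Every library, the EV-RV controls included, thus came from Irf4-/- leukemia cells that had been transduced. Titles and tissue labels name T8, although the growth and treatment protocols name T11, another line. The design text calls the libraries of a group biological replicates. All come from 1 tumor, so p-values here measure the spread between libraries of cells from that tumor.

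IFIT proteins are among the most strongly interferon-induced proteins of vertebrates. Interferon receptors activate the complex ISGF3, which holds STAT2 and IRF9 and binds response elements in the promoters of these genes. IRF1, IRF3 and IRF7 can also act at such elements. IFIT1 binds the 5′ ends of RNAs that lack the methylation of a self cap and blocks their translation, while IFIT2 and IFIT3 bind other IFIT proteins, and IFIT2 has been linked to apoptosis. *Ifit3b* is a near copy of *Ifit3*, and *Ifit1bl1* and *Ifit1bl2* are *Ifit1*-like genes of the mouse.

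The 6 IFIT genes lay side by side on chromosome 19 (GRCm38), within 99.3 kb. In order along the chromosome they were *Ifit2* (plus strand, 34550694 to 34576419), *Ifit3* (plus, 34583531 to 34588731), *Ifit1bl1* (minus, 34592891 to 34601956), *Ifit3b* (plus, 34607970 to 34613401), *Ifit1bl2* (minus, 34617049 to 34640743) and *Ifit1* (plus, 34640871 to 34650009). No member overlapped another annotated gene. The starts of *Ifit1* and *Ifit1bl2* faced away from each other, 128 bases apart.

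The stretches upstream of the member starts are shown as a description, and a link between what they hold and how the members responded was not tested. Each runs from base -200 to base -21 before a RefSeq start (GRCm38.p6), 5′ to 3′ on the strand of the gene. Capitals mark matches to GAAANNGAA, which lies within the core of the interferon-stimulated response element, on either strand. The *Ifit1* stretch is chr19:34640689-34640868 (plus strand), that of *Ifit3* chr19:34583329-34583508 (plus), that of *Ifit3b* chr19:34607757-34607936 (plus), that of *Ifit2* chr19:34550494-34550673 (plus) and that of *Ifit1bl1* chr19:34601989-34602168 (minus).
Ifit1: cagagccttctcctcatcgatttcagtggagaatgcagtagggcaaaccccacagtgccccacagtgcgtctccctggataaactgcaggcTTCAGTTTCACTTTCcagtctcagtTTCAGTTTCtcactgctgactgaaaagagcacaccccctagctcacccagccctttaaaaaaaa
Ifit3: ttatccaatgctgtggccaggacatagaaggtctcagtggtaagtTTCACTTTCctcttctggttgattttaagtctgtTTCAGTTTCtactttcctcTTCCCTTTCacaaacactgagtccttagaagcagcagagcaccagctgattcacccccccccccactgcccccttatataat
Ifit3b: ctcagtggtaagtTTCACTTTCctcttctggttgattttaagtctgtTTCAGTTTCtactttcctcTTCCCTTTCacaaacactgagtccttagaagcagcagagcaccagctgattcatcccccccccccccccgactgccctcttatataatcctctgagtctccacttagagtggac
Ifit2: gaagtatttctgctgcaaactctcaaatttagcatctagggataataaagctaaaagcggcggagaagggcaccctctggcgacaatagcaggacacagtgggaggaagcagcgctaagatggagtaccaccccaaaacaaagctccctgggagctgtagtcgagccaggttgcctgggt
Ifit1bl1: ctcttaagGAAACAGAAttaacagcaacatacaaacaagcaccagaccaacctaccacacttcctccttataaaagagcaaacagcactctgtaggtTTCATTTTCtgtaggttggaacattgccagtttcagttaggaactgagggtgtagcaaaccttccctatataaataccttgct

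*Ifit1*, *Ifit3* and *Ifit3b* each held 3 matches, all on the strand opposite to the gene. They began at -109, -103 and -84 in *Ifit1* (the first and second overlap), at -155, -121 and -102 in *Ifit3*, and at -187, -153 and -134 in *Ifit3b*. The matches of *Ifit3* and *Ifit3b* had the same letters, order and spacing. The 250 bases before both starts aligned with 217 identical bases in 282 columns (77.0%), gap columns included. As the matches lay further from the *Ifit3b* start, the 2 stretches are offset, and 77.0% understates the likeness of the part they share. *Ifit1bl1* held 2 matches, at -192 on its own strand and at -103 on the opposite one. The *Ifit2* window held none, and neither did a window at its second RefSeq start. Only these windows were searched for *Ifit2*, so matches elsewhere in or near the gene would have been missed. The window of *Ifit1bl2* covers the same 3 matches as that of *Ifit1*, read from the other side. Over all 32817 RefSeq promoter windows of 300 bases, 2806 (8.55%) held at least 1 match, and 20 (0.0609%) held at least 3. Of these 20 windows, 4 belonged to *Ifit1*, *Ifit3*, *Ifit3b* and *Ifit1bl2*, and *Isg15* had another. GGAANNGAA, which lies within the ETS-IRF composite element bound by IRF4 with PU.1, had no match in any IFIT window, against 2706 windows (8.25%) in all. At so low a share, no match in so few windows is common and sets the IFIT genes apart in nothing. Binding of IRF4 to the IFIT windows, at either motif or elsewhere, was not tested. The letters of the 2 motifs exclude each other at 1 position and strand.

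The libraries held 31230223 to 37817752 counts, at which 3 counts, used as the floor, equal 0.0824 to 0.0952 CPM (CPM being counts scaled to the size of each library). *Irf4* had 8070 and 7600 counts in EV-RV and 95578 and 90693 in IRF4-RV, so the labels and the targeted gene matched. The EV-RV counts came from the deleted gene's annotated exons, and whether they lie outside the deleted part was not tested. In the test across all genes, 4349 of 14637 genes (29.7%) passed an adjusted p under 0.1 (edgeR quasi-likelihood test, Benjamini-Hochberg), so a call alone is common here. The B lineage genes *Cd79a* and *Cd79b* had 9245 to 33036 counts in every library, while *Rag1* and *Rag2* had at most 1 in any. Of 12 B lineage markers, 10 were tested, 2 rose (*Ptprc* and *Blnk*) and 3 fell (*Igll1*, *Vpreb1* and *Dntt*). In bulk RNA, fewer cells of a type and less RNA per cell cannot be told apart.

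Most members rose with IRF4-RV and *Ifit1bl1* fell: 4 of 5 were called higher, where 16% of all genes tested were, and 1 of 5 lower, where 13.7% were. With scaling by library size only, the calls over all genes turned from 2340 higher and 2009 lower to 1743 and 2867, and those of the members stayed at 4 and 1. *Ifit1*, *Ifit3* and *Ifit3b* went from at most 8 counts per library to at least 48. *Ifit2*, which had the most counts of the members in EV-RV, not scaled by gene length, changed least in fold terms.

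*Ifit1*, which encodes the sensor of foreign RNA 5′ ends, had 3 and 0 counts in EV-RV and 92 and 221 in IRF4-RV. The EV-RV libraries were thus at or under the floor, and both IRF4-RV libraries lay far above it. Scaled to library size, the mean was 0.0450 ± 0.0636 CPM in EV-RV and 4.39 ± 2.37 CPM in IRF4-RV (SD, n = 2 each). The ratio of the summed counts was 96.3, with an exact 95% interval of 32.7 to 470 that covers counting error only, as do all such intervals here. The fitted log2 fold change was 6.47 ± 0.743 (SE), with an edgeR adjusted p of 0.000773. Here and below, the SE was derived from the fold change and the F statistic of the test. With so few EV-RV counts this fold is uncertain and moves with the constant (prior count) that edgeR adds. The fold was 5.41 with a prior count of 2, and 6.57 with DESeq2. Without EV-RV 1, the only EV-RV library with *Ifit1* counts, it was 10.22, a value fitted against 0 counts that is no measure of size.

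*Ifit3*, whose protein binds other IFIT proteins, had 8 and 7 counts in EV-RV and 155 and 348 in IRF4-RV. Its EV-RV libraries agreed closely, at 0.231 ± 0.0126 CPM, and its IRF4-RV libraries spread more, at 7.07 ± 3.52 CPM (SD, n = 2 each). The log2 fold change was 4.91 ± 0.459 (edgeR adjusted p 0.000276), a ratio of summed counts of 31.0 with an interval of 18.6 to 55.7. *Ifit3b*, its near copy, had 2 and 1 counts in EV-RV and 48 and 116 in IRF4-RV, which scaled to 0.0458 ± 0.0200 and 2.30 ± 1.25 CPM (SD, n = 2 each). The test gave *Ifit3b* a log2 fold change of 5.53 ± 0.667 (edgeR adjusted p 0.000996), and the ratio of summed counts was 50.5 (interval 17.0 to 247).

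Reads of the latter pair cannot be assigned with certainty. Of the 50-base stretches in the *Ifit3* transcript, 51.2% also occur in *Ifit3b*, and 44.5% of those of *Ifit3b* occur in *Ifit3*. How the counting treated reads that map to both is not given in the sources used here. With the counts of both genes summed, the log2 fold change was 5.06 ± 0.459 (edgeR adjusted p 0.000246). *Ifit1* shared 7.13% of its stretches with other genes, *Ifit1bl1* 6.45%, and *Ifit2* none.

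*Ifit2*, which encodes the member linked to apoptosis, had 300 and 209 counts in EV-RV and 608 and 684 in IRF4-RV. The levels were 7.81 ± 1.67 and 18.4 ± 0.591 CPM (SD, n = 2 each). The log2 fold change was 1.23 ± 0.152, with a 95% interval of 0.88 to 1.58 (edgeR adjusted p 0.00111). Among all genes tested, 517 (3.53%) were called higher with a log2 fold change at or above that of *Ifit2*, and 39 (0.266%) at or above that of *Ifit3*, the lowest of the other three.

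*Ifit1bl1* went the other way. It had 130 and 101 counts in EV-RV and 35 and 40 in IRF4-RV, which scaled to 3.55 ± 0.490 and 1.07 ± 0.0461 CPM (SD, n = 2 each). The log2 fold change of *Ifit1bl1* was -1.73 ± 0.250, with an interval of -2.31 to -1.15 (edgeR adjusted p 0.00227). The summed counts were 3.34 times higher in EV-RV (interval 2.56 to 4.39), and 95 genes (0.649%) were called lower by as much or more. *Ifit1bl2*, which is not among the members, had 1 and 0 counts in EV-RV and 5 and 1 in IRF4-RV and was not tested, although its start lies next to that of *Ifit1*.

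**Figure D1:**
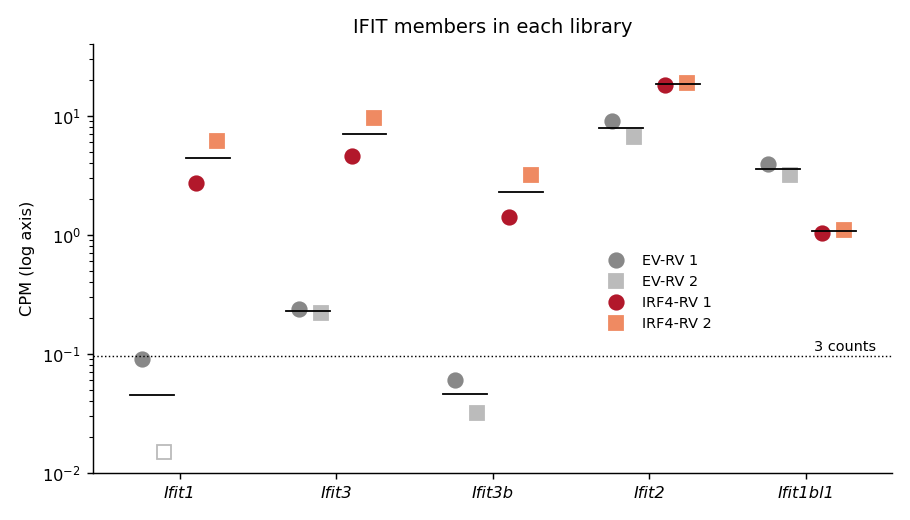
CPM of each member (log axis) in the 2 EV-RV libraries (grey) and the 2 IRF4-RV libraries (red and orange), with lines at group means and a dotted line at the highest level that 3 counts reach. The open square is *Ifit1* at 0 counts in EV-RV 2, drawn at the foot of the axis. *Ifit1*, *Ifit3* and *Ifit3b* rise from near or below the 3-count line, *Ifit2* rises from 7.81 to 18.4 CPM, and *Ifit1bl1* falls from 3.55 to 1.07 CPM.

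**Figure D2:**
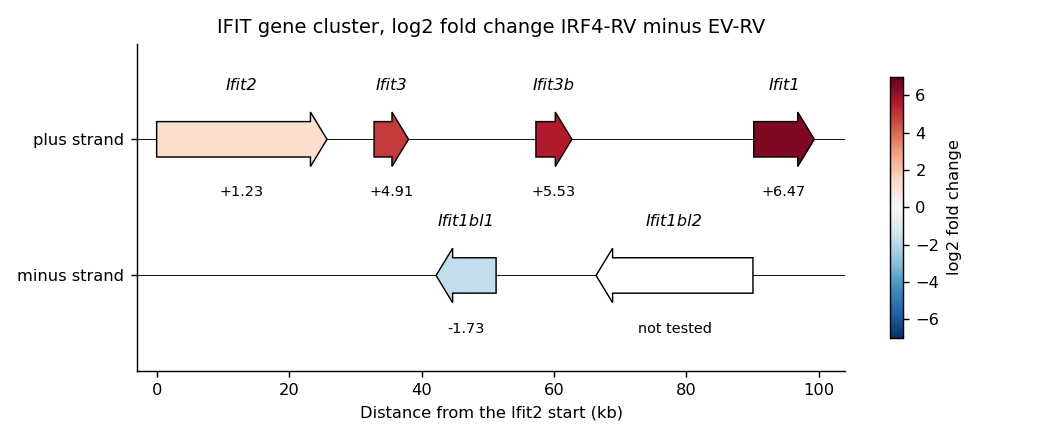
The IFIT gene cluster, with gene bodies to scale as arrows in the direction of transcription, placed by distance in kb from the *Ifit2* start and coloured by log2 fold change, IRF4-RV minus EV-RV. The plus-strand genes carry values of 1.23 to 6.47, *Ifit1bl1* on the minus strand carries -1.73, and *Ifit1bl2* (white) was not tested.

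All 4 members called higher are on the plus strand and *Ifit1bl1* is on the minus strand, between *Ifit3* and *Ifit3b*. Of 11 other protein-coding genes within 500 kb of the cluster, 6 were tested (*Stambpl1*, *Acta2*, *Fas*, *Lipa*, *Pank1* and *Kif20b*). None was called by edgeR, where 29.7% of all genes tested were, or by DESeq2, and none had an unadjusted edgeR p under 0.05. With 6 genes and intervals as wide as that of *Fas* (-0.47 to 1.09), this cannot show whether the change stopped at the cluster. Their log2 fold changes ran from -0.20 (*Kif20b*) to 0.31 (*Fas*, the death receptor gene), with a median of 0.125 against 0.00726 over all genes tested. *Kif20b* was called lower when EV-RV 2 was left out (log2 fold change -0.50, edgeR adjusted p 0.0531) or IRF4-RV 1 was (-0.38, 0.0945). *Ch25h*, a further interferon-inducible gene beside the cluster, had 0 counts in all 4 libraries. Neighbours were named here after their values were seen.

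The share of each member in the IFIT counts is given per library as a description. The 5 members together reached 13.3 and 10.1 CPM in EV-RV and 27.7 and 38.7 CPM in IRF4-RV. In EV-RV 1, *Ifit2* took 67.7% of the 443 IFIT counts (Wilson 95% interval 63.2 to 71.9%) and *Ifit1bl1* 29.3% (25.3 to 33.7%). EV-RV 2 was alike, with 65.7% *Ifit2* and 31.8% *Ifit1bl1* of 318 counts. *Ifit1*, *Ifit3* and *Ifit3b* shared what was left, each with at most 2.20%. In IRF4-RV 1, *Ifit1bl1* took 3.73% of 938 counts (2.70 to 5.15%), while *Ifit3* took 16.5%, *Ifit1* 9.81% and *Ifit3b* 5.12%. In IRF4-RV 2 the *Ifit2* share was 48.5% of 1409 counts (45.9 to 51.2%), below the 64.8% in IRF4-RV 1 (61.7 to 67.8%), with *Ifit3* at 24.7%, *Ifit1* at 15.7% and *Ifit3b* at 8.23%. The shares are of counts not scaled by gene length, and they were not tested between groups.

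**Figure D3:**
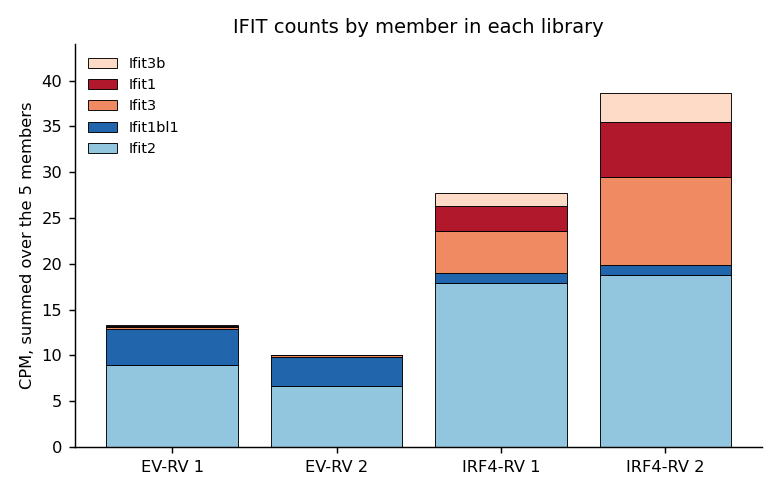
CPM summed over the 5 members in each library, stacked by member. The EV-RV bars (13.3 and 10.1 CPM) are nearly all *Ifit2* and *Ifit1bl1*. In the IRF4-RV bars (27.7 and 38.7 CPM) *Ifit2* grows from a mean of 7.81 to 18.4 CPM, *Ifit3*, *Ifit1* and *Ifit3b* are gained, and *Ifit1bl1* shrinks.

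Levels of different genes can be compared only per length. Per kb of exon, the EV-RV levels were 1.99 ± 0.425 CPM for *Ifit2* and 1.57 ± 0.217 for *Ifit1bl1*. *Ifit2* was the higher of this pair in each EV-RV library, although their ranges over libraries overlapped. *Ifit3* followed at 0.132 ± 0.0072 CPM per kb, and *Ifit3b* (0.0229 ± 0.00998) and *Ifit1* (0.0169 ± 0.0239) were lowest and overlapped (SD, n = 2 throughout). In IRF4-RV, *Ifit2* (4.68 ± 0.150 CPM per kb) and *Ifit3* (4.05 ± 2.02) did not differ beyond their spread, *Ifit2* being higher in IRF4-RV 1 and *Ifit3* in IRF4-RV 2. *Ifit1* (1.65 ± 0.893) and *Ifit3b* (1.15 ± 0.625) came next. Their ranges over libraries overlapped, but *Ifit1* was the higher of this pair in each IRF4-RV library. *Ifit1bl1*, second in EV-RV, was last in IRF4-RV at 0.472 ± 0.0204 CPM per kb.

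*Ifit1*, *Ifit3* and *Ifit3b* kept their proportions from one IRF4-RV library to the other, although the level of each differed between them. *Ifit3* had 1.68 counts per *Ifit1* count in IRF4-RV 1 (exact 95% interval 1.29 to 2.21) and 1.57 in IRF4-RV 2 (1.33 to 1.87). *Ifit3b* had 0.522 (0.360 to 0.747) and 0.525 (0.416 to 0.660) counts per *Ifit1* count. As reads of *Ifit3* and *Ifit3b* cannot be assigned with certainty, the proportions and library ratios of these near copies may not be independent. *Ifit2*, in contrast, had 6.61 counts per *Ifit1* count in IRF4-RV 1 (5.30 to 8.32) and 3.10 in IRF4-RV 2 (2.66 to 3.62), intervals that did not overlap. The ratio of *Ifit2* to *Ifit1bl1*, both well counted in every library, was 2.31 and 2.07 in EV-RV and 17.4 and 17.1 in IRF4-RV.

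The same counts can also be put as ratios of the 2 IRF4-RV libraries, which restates this split and adds no further support. *Ifit1* was 2.23 times higher in IRF4-RV 2 than in IRF4-RV 1 (interval 1.74 to 2.88), *Ifit3* 2.09 times (1.72 to 2.54) and *Ifit3b* 2.25 times (1.59 to 3.22). *Ifit2* (1.05, interval 0.937 to 1.17) and *Ifit1bl1* (1.06, 0.658 to 1.72) were near 1. Of 4056 genes with a mean of 50 to 500 counts in IRF4-RV, 117 (2.88%) had a ratio of 2.09 or more. *Irf4* itself was slightly lower in IRF4-RV 2, at 0.883 of its level in IRF4-RV 1.

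IRF4-RV 2 also stood apart in stromal genes, and their part in this difference was not tested. T8 had first been grown on a layer of ST2 stromal cells and later without them. Of 7 stromal markers, 5 were tested and none was called. Their summed level was 46.8 and 87.3 CPM in EV-RV and 45.9 and 217 CPM in IRF4-RV, so IRF4-RV 2 held 4.73 times the level of IRF4-RV 1. The 5 markers tested, the collagen genes *Col1a1*, *Col1a2* and *Col3a1*, the chemokine gene *Cxcl12* and *Pdgfrb*, were all 3.99 to 6.39 times higher there, while *Dcn* and *Lum* had at most 2 counts in any library. Beside these sums, *Ifit1* had 3 and 0 counts in EV-RV 1 and 2, and 92 and 221 in IRF4-RV 1 and 2. Without IRF4-RV 2, all 5 members kept their direction, with log2 fold changes of 5.77 for *Ifit1*, 4.29 for *Ifit3*, 4.83 for *Ifit3b*, 1.20 for *Ifit2* and -1.77 for *Ifit1bl1*. In that fit the lone IRF4-RV library is assumed to vary like the EV-RV pair.

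**Figure D4:**
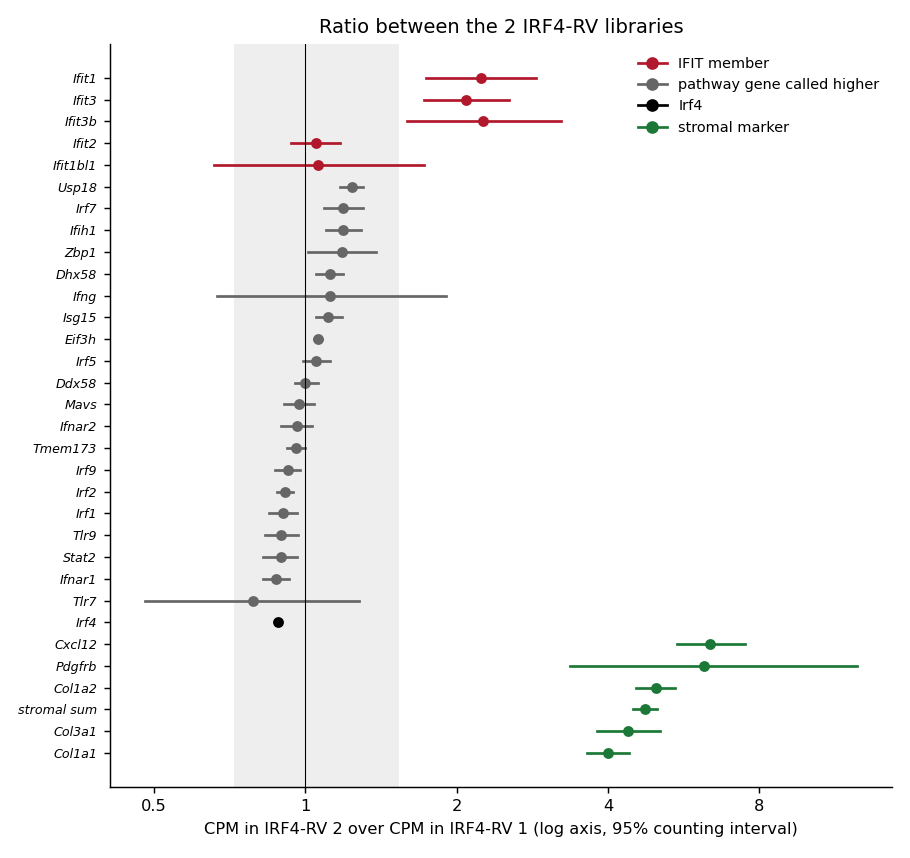
CPM in IRF4-RV 2 divided by CPM in IRF4-RV 1 (log axis) with exact 95% counting intervals, for the members, pathway genes called higher (all but 1 shown), *Irf4* and stromal markers. The grey band spans the 5th to 95th percentile (0.725 to 1.53) of 4056 genes with like counts; *Ifit1*, *Ifit3* and *Ifit3b* (2.09 to 2.25) and the stromal markers lie above it, and *Ifit2* and *Ifit1bl1* lie within it.

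Markers of blood cell types that could respond to interferon were mostly near 0. Of 9 macrophage and monocyte markers, 2 were tested and *Mrc1* was called higher, the summed level being 1.49 to 1.50 CPM in EV-RV and 7.50 to 8.59 in IRF4-RV, with *Adgre1* at 0 and *Lyz2* and *Csf1r* at no more than 3 counts in any library. Of 7 granulocyte markers, *Ly6g* alone was tested and called higher, the sum being 0.0634 to 0.0899 CPM in EV-RV and 1.62 to 2.13 in IRF4-RV, with *S100a8*, *S100a9*, *Camp* and *Ngp* at 0. Of 4 plasmacytoid dendritic cell markers, 1 was tested and not called, the sum being 0.381 to 0.749 CPM in EV-RV and 0.472 to 0.522 in IRF4-RV, with *Siglech* and *Klk1* at 0. Of 8 T and NK cell markers, 2 were tested and *Trac* was lower, the sum being 19.8 to 20.3 CPM in EV-RV and 12.7 to 13.1 in IRF4-RV, with *Cd8a* and *Ncr1* at 0. The part of these markers in the IFIT values was not tested.

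The other genes of the interferon and IFIT pathway were followed in 7 lists. Of 59 genes listed, 46 were tested, 21 were called higher, 7 lower and 18 neither (60.9% called, against 29.7% over all genes), with a median log2 fold change of 0.19 against 0.00726 over all genes tested. All but *Eif3h* of the genes called higher belonged to the lists of interferon signalling and sensing. The 7 called lower were a share near the 13.7% over all genes.

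Among the ligand genes listed, transcripts of type I and III interferons were at or near 0, and interferon genes outside the list were not examined. Of 12 ligand genes, 9 had 0 counts in every library, *Ifnb1* had 0 and 3 counts in EV-RV and 3 and 0 in IRF4-RV, and *Ifnk* had 1 count in all. *Ifng*, the type II interferon, was the 1 ligand gene tested and had 0 counts in both EV-RV libraries and 29 and 35 in IRF4-RV. That is at least 19.7-fold higher, against 3 counts over the EV-RV group (edgeR adjusted p 0.00182).

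Among the receptor and ISGF3 genes, *Stat2* (log2 fold change 1.88 ± 0.114, edgeR adjusted p 3.20e-05) and *Irf9* (1.72 ± 0.0948, 2.27e-05), both subunits of ISGF3, rose, as did the receptor chains *Ifnar1* (1.02) and *Ifnar2* (0.69). The kinase genes *Jak1* (0.02) and *Tyk2* (0.18) did not pass the test. *Stat2* had 354 and 294 counts in EV-RV and 1317 and 1263 in IRF4-RV. Between the IRF4-RV libraries *Stat2* differed by a ratio of 0.892, where *Ifit1* differed by 2.23.

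Of 6 interferon regulatory factors tested besides *Irf4*, 4 rose, from *Irf5* (0.27 ± 0.0831, edgeR adjusted p 0.0550) to *Irf7* (1.93 ± 0.127, 4.53e-05), which amplifies interferon responses. *Irf5* lost its call with library size only and without any 1 of the 4 libraries (edgeR adjusted p 0.107 to 0.310). *Irf8*, a factor of B cell and myeloid development, fell (-0.32, edgeR adjusted p 0.0152), and *Irf3*, which can induce IFIT genes without interferon, had a log2 fold change of -0.10 and was not called. Of the feedback genes, *Usp18*, which restrains the type I receptor, rose from 49 and 51 counts to 2277 and 3023 (log2 fold change 5.60 ± 0.161, edgeR adjusted p 1.38e-06). *Isg15*, a ubiquitin-like modifier, rose by 4.92 ± 0.169 on the log2 scale (edgeR adjusted p 2.35e-06), and *Socs1* (-0.05) and *Socs3* (0.08) did not pass the test. The log2 fold changes of *Usp18* and *Isg15* lay inside the 95% intervals of those of *Ifit3* (3.85 to 5.98) and *Ifit3b* (3.98 to 7.08).

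Of 9 genes of nucleic acid sensing tested, 8 rose. The endosomal RNA receptor gene *Tlr7* had the highest value (5.75 ± 0.789, edgeR adjusted p 0.00178), from 0 and 1 counts to 39 and 33, and *Mavs*, the adaptor of the RNA helicases, the lowest of those called (0.31, 0.0338). The helicases *Ddx58* (1.40), *Ifih1* (1.24) and *Dhx58* (1.63) lay between, and *Cgas* (0.50, edgeR adjusted p 0.125) did not pass. Over the 21 pathway genes called higher, the ratio of IRF4-RV 2 to IRF4-RV 1 ran from 0.787 (*Tlr7*) to 1.24 (*Usp18*), below the 2.09 of *Ifit3*.

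The called genes of the mRNA cap and of eIF3 had log2 fold changes of -0.47 to 0.28. Of 5 genes for the formation and methylation of the mRNA cap, which marks RNA as self, none rose. *Cmtr2*, a cap methyltransferase gene, fell by 0.45 on the log2 scale (edgeR adjusted p 0.0197) and *Rnmt*, which encodes the cap guanine methyltransferase, fell by 0.25 (0.0601), while *Cmtr1* had the highest value (0.14) and was not called. Of 14 genes for eIF3, a translation initiation complex that IFIT1 and IFIT2 can bind, *Eif3h* rose (0.28, edgeR adjusted p 0.0475). *Eif3b* (-0.47), *Eif3j1* (-0.35), *Eif3j2* (-0.34) and *Eif3g* (-0.27) fell, and 9 were not called. The calls made up 40% of the cap genes and 35.7% of the eIF3 genes, shares near the 29.7% over all genes. *Rnmt* lost its call without any 1 of the 4 libraries (edgeR adjusted p 0.105 to 0.283), and *Eif3h* and *Eif3g* each lost theirs in 3 of these 4 fits. *Eif3j1* and *Eif3j2* are near copies whose counts may be split. The 7 calls of lower expression over all lists became 4 when either IRF4-RV library was left out.

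**Figure D5:**
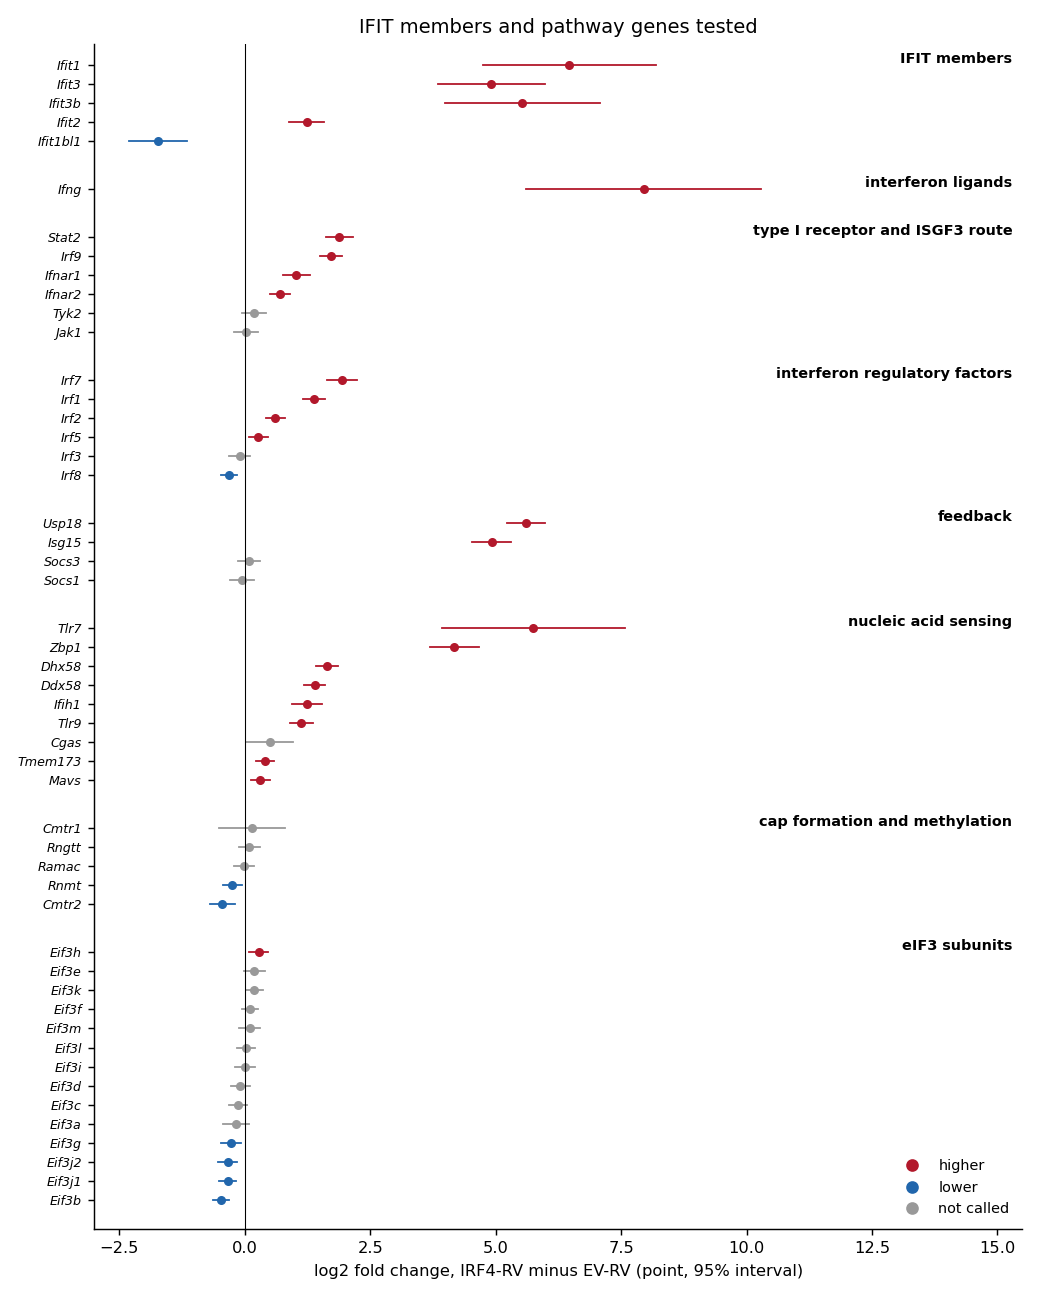
Log2 fold change, IRF4-RV minus EV-RV, for the 5 members and the pathway genes tested (all but 1 shown), grouped by list and coloured by call (adjusted p under 0.1). The 95% intervals were derived from the fold change and the F statistic of the edgeR test. *Ifit1*, *Ifit3* and *Ifit3b* lie at 4.91 to 6.47 beside *Usp18* and *Isg15*, *Ifit2* lies at 1.23 beside *Irf1* and *Ifih1*, and *Ifit1bl1* at -1.73 lies below every pathway gene.

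Outside the members and lists, the tested genes whose profile over the 4 libraries was nearest to the mean profile of the members were *Oas3*, *Phf11a*, *Igkj4*, *Stom* and *Serpini1*. The root mean square difference of their centred log2 CPM ran from 0.132 for *Oas3* to 0.202 for *Serpini1*. *Oas3*, which encodes an antiviral oligoadenylate synthetase, had 62 and 42 counts in EV-RV and 363 and 503 in IRF4-RV. The mean profile joins members that rose with *Ifit1bl1*, which fell, so these genes match the average and not each member.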

How the data were processed

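Bulk RNA-seq was made from 4 libraries, 2 transduced with EV-RV and 2 with IRF4-RV, and groups were taken from the sample labels. The authors deposited 1 table of raw read counts per gene, made per the labels with FastQC 0.11.2, STAR 2.4.0j on GRCm38 and featureCounts. The paper names Ensembl annotation, and strand and multimapping settings are not given in the sources used here. Identifiers were named with GENCODE M21 (52083 of 55359 matched, and the unmatched held 0.203 to 0.486% of a library's counts). From these counts, edgeR 4.0.16 in R 4.3.3 (filterByExpr, TMM, quasi-likelihood test, default prior count 0.125) compared IRF4-RV with EV-RV over all 14637 genes that passed the filter, with an FDR of 0.1 after the study's methods. The code was tested on simulated data. CPM used TMM-scaled library sizes (31230223 to 37817752 counts before scaling), and SD is over n = 2. Each SE was the absolute log2 fold change over the square root of the F statistic of the test. Intervals of log2 fold changes were built from this SE and a t quantile, so SE and interval both move with the prior count.

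The members and gene lists were chosen with earlier results of these data known, and nothing here is independent support for them. The text names the members, *Ifit1bl2*, *Irf4*, of each pathway list the genes with the largest and smallest log2 fold change and any that fell, neighbours called, and the 5 nearest profiles. Other genes were named after their values were seen. Ratios of counts have exact conditional binomial intervals and shares have Wilson 95% intervals. Promoter windows are from RefSeq and matched all 6 IFIT genes, with the window nearest the GENCODE start used. Their identity was aligned with Biopython 1.88, and shared 50-base stretches were counted over all GENCODE transcripts on both strands. Protein identity was not analysed here, and some genes of the lists are counted but not reported singly. Alternatives were DESeq2 1.42.0, its size factors, library size only, 2 other filters, an FDR of 0.05, a replicate block, leaving out each library, summing *Ifit3* with *Ifit3b* and, chosen after seeing the data, a prior count of 2.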

Additional observations from a re-analysis of the deposited data

How the results depend on the processing

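All 5 members kept their call and direction (4 higher, 1 lower) under DESeq2, its size factors, library size only, both other filters, an FDR of 0.05, the replicate block and without each library in turn. Leaving out 1 library gave log2 fold changes of 5.56 to 10.22 for *Ifit1*, 4.29 to 5.33 for *Ifit3*, 4.83 to 6.02 for *Ifit3b*, 1.03 to 1.46 for *Ifit2* and -1.86 to -1.59 for *Ifit1bl1*. The prior count of 2 gave 5.41, 4.62, 4.49, 1.23 and -1.68. All genes called numbered 3347 (FDR of 0.05) to 6394 (replicate block). The replicate numbers are shared in the labels only as numbers. Across genes, the pair of libraries numbered 1 deviated from the means of their groups with r = 0.26, and the 6394 calls with the block included all 4349 without it. Library size only moved the median of all genes from 0.00726 to -0.0832.

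Pathway genes called lower numbered 7, and 4 to 6 when a library was left out (4 without either IRF4-RV library), and neighbours called were 0 to 1. Of 458 values for the 46 pathway genes under alternatives, 411 kept direction and call, 20 lost a call (*Irf5*, *Irf8*, *Mavs*, *Rnmt*, *Eif3g*, *Eif3h* and *Eif3j2*), 10 gained one (6 genes) and 17 changed sign (9 genes, none of them called in either fit). Those with library size only were *Jak1* -0.0726, *Socs3* -0.00635, *Rngtt* -0.000749, *Eif3i* -0.0831 and *Eif3l* -0.0664, and with the filter of CPM of at least 1, *Eif3i* -0.00886. Leaving out 1 library gave ranges of -0.119 to 0.171 for *Jak1*, -0.156 to 0.0450 for *Socs1*, -0.0859 to 0.0531 for *Ramac*, -0.00119 to 0.286 for *Cmtr1*, -0.0943 to 0.105 for *Eif3i*, -0.0257 to 0.0673 for *Eif3l* and -0.0138 to 0.198 for *Eif3m*. The cause was not tested. Depth limits *Ifit1* and *Ifit3b*, whose EV-RV levels lie at or under 3 counts, and *Ifit1bl2*, which could not be tested.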

Other observations

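Of the genes tested, 9245 had a RefSeq promoter window matched by symbol. Among the 810 with at least 1 match to GAAANNGAA, 235 (29.0%) rose with IRF4-RV and 96 (11.9%) fell. Among the 8435 without a match, 1511 (17.9%) rose and 1355 (16.1%) fell. Of the genes tested, 10 had a window with at least 3 matches, of which 5 rose and 1 fell. With each shared window counted once, under 1 gene name, 9 are named here. *Ifit1*, *Ifit3*, *Ifit3b*, *Isg15* and *Cybb* (log2 fold change 6.86), a phagocyte oxidase gene, rose, and *Mocs3* (-0.52) fell. *Rwdd4a* (-0.17), *Trappc11* (0.09) and *Washc3* (0.06) were not called. The counts describe letters in windows, and the difference between the shares was not tested.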
